A study of Homo sapiens with 2 samples.

Results

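The genes described are those whose symbol begins with MRPL or MRPS followed by a digit, the proteins of the mitochondrial ribosome. They numbered 78 of the 12918 genes in the deposited table, 49 of the large subunit (MRPL) and 29 of the small subunit (MRPS), and all 78 protein-coding symbols of this kind in the GENCODE 29 annotation were listed. They were chosen by symbol alone, with the readthrough symbol URGCP-MRPS24 left out, and 78 of 78 passed the filter of 1 FPKM in at least 1 library. RNA was taken 48 h after transfection from MDA-MB-231 cells, an established line of triple-negative breast cancer grown in L15 medium with fetal bovine serum. The si-v library, assigned to the THAP7-AS1 Smart Silencer because the other column bears the control's name, was set beside the si-NC library, from cells that received the negative control. THAP7-AS1 is a long noncoding RNA transcribed antisense to THAP7, and a Smart Silencer is a commercial mixture of siRNA and antisense oligonucleotides. Both groups were the same line, each group had 1 library, and no test between them was possible.

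The mitochondrial ribosome stands in the matrix and translates the few messages encoded in mitochondrial DNA, which code for core membrane proteins of respiration and ATP synthesis. Its RNA comes from mitochondrial DNA, but every one of its proteins is made from nuclear messages in the cytosol and imported. Compared with a bacterial ribosome it has lost RNA and gained proteins, so its protein list falls into those with a bacterial counterpart and those found only in mitochondria.

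Values were read as FPKM, which divides a transcript's fragments by its length and by the size of the library, and were summed over the listed transcripts of a gene. About 8319011 fragments in the si-v library and 7833042 in the si-NC library fell on listed transcripts, as recovered from the steps between low values. No transcript of THAP7-AS1 was listed (0 of 3 annotated), so the knockdown and the column assignment could not be checked. Markers of the line were present, VIM at 373 and 344 FPKM and AXL at 204 and 259 FPKM in the si-v and si-NC libraries, and of the luminal genes ESR1 was listed at 0 in both, PGR was not listed, CDH1 stood at 0.122 and 0.0845 FPKM, FOXA1 at 0.359 and 0.228 FPKM, and GATA3 at 2.18 and 2.65 FPKM. Leukocyte genes PTPRC and CD3E and the fibroblast gene DCN were not listed, CD68 stood at 55.0 and 47.8 FPKM, COL1A1 at 1.14 and 0.482 FPKM, and PDGFRB at 0.641 and 1.01 FPKM. In bulk RNA, a lower level in every cell and a smaller share of cells with the message cannot be told apart.

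Messages of the mitochondrial ribosome spanned a wide range of levels. Per length, they ran over 3.02 to 165 FPKM in the si-v library and 3.99 to 111 FPKM in the si-NC library, a 54.4-fold and a 27.8-fold spread. The most abundant in the si-v library was MRPS34, a small subunit protein found only in mitochondria, at 165 FPKM, against 82.1 FPKM in the si-NC library. MRPL24, a protein at the mouth of the peptide exit tunnel, followed at 138 and 86.5 FPKM, and MRPS15, a small subunit protein with a bacterial counterpart, at 115 and 111 FPKM. In the si-NC library MRPS15 was first, and MRPS6, another small subunit protein with a bacterial counterpart, came next at 91.2 FPKM in the si-v and 108 FPKM in the si-NC library. MRPL33, a small basic protein of the large subunit, stood at 82.4 and 98.4 FPKM. Their 95% counting intervals were -0.06 to 0.17 for MRPS15 and -0.44 to -0.08 for MRPL33, on the log2 scale of si-v over si-NC fragments. MRPL51, at 82.8 and 63.4 FPKM, completed the 3 highest of the large subunit in the si-v library. At the low end MRPL49 had 4.98 and 3.99 FPKM, MRPL22, a protein of the exit tunnel, 5.87 and 6.26 FPKM, and MRPL53 6.07 and 7.81 FPKM.

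The order of the genes was largely shared between the libraries. Of the 10 most abundant members, 7 were the same in both, and the log2 levels of the 78 members followed each other with Pearson's r of 0.94 and Spearman's rho of 0.96, a description across genes of 2 libraries. The members together held 0.983% of the summed FPKM in the si-v library and 0.886% in the si-NC library. Counting fragments in place of FPKM, 43388 fell on them in the si-v library and 37796 in the si-NC library. Scaled to depth this was a log2 ratio of 0.08, with an exact Clopper-Pearson 95% interval of 0.06 to 0.10. Such intervals cover counting error within these libraries only, and say nothing about how far another culture would have differed.

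**Figure D1:**
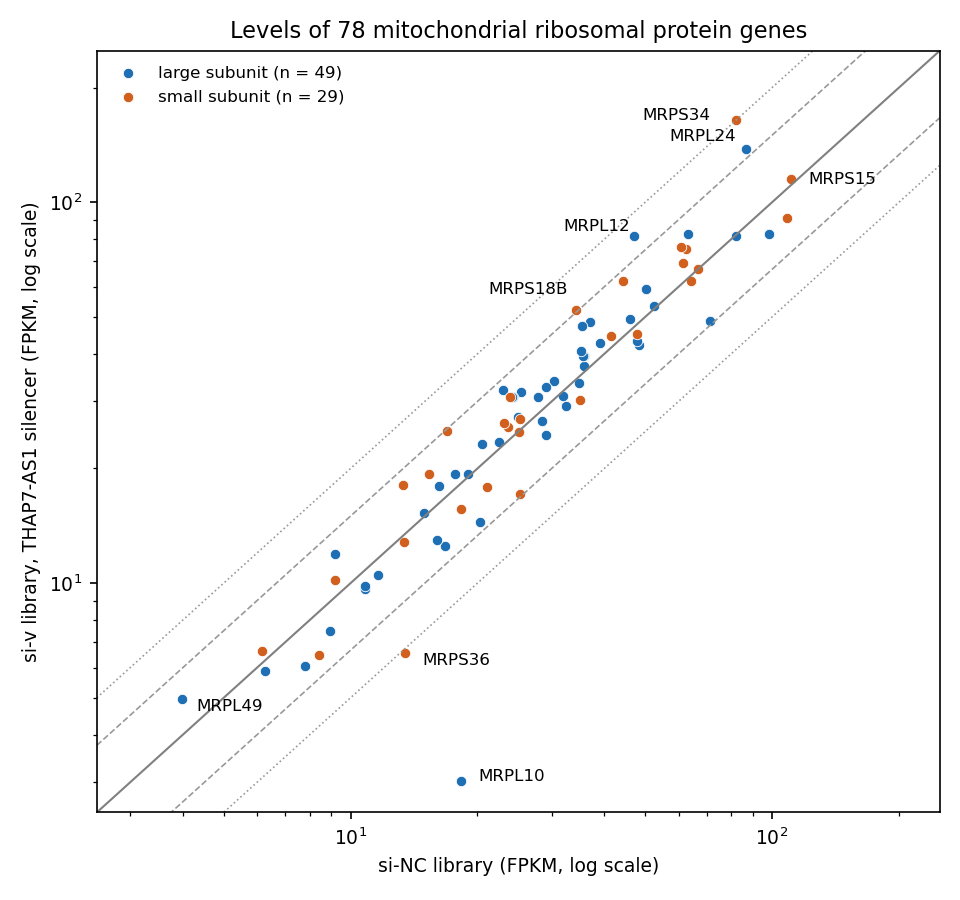
Level of each of the 78 members in the si-v library (vertical, FPKM, log scale) against the si-NC library (horizontal, FPKM, log scale), large subunit in blue and small subunit in orange; the solid line marks equal levels, dashed lines 1.5-fold and dotted lines 2-fold with no pseudocount. Most points lie close to the line, MRPL10 lies far below it at 3.02 and 18.2 FPKM, and MRPS34 lies above it at 165 and 82.1 FPKM.

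Most members differed little between the libraries. On the scale log2((si-v + 1)/(si-NC + 1)), 72 of 78 (92.3%) lay within 1.5-fold, beside 81.3% of the 11046 genes past the filter. The median was 0.09 with quartiles of -0.14 and 0.25, against a median of 0.00 over all genes. By this measure 47 members (60.3%) were above 0, beside 50.4% of all genes, and 31 were below 0, beside 49.6% of all genes. Among the 47, MRPL19, MRPL42 and MRPS16 were below 0 by fragments, at -0.52, -0.51 and -0.45. So were MRPL35, MRPS18C and MRPL37, at -0.04, -0.02 and -0.004. No member below 0 by FPKM was above 0 by fragments. With fragments per gene the member median was 0.04. At 1.5-fold, 4 members were higher in the si-v library (5.13%, against 9.82% of all genes) and 2 were lower (2.56%, against 8.91%). At 2-fold, 0 were higher, where the share of all genes was 2.37%, and 1 was lower, where that share was 2.49%. The counting interval lay above 0 for 23 members (29.5%, against 29.4% of all genes) and below 0 for 18 (23.1%, against 30.8%), so the shares past counting error were near or under the background. The standard deviation across members was 0.41, or 0.31 without MRPL10, beside 0.49 over all genes. The members were also more abundant, with median levels of 30.8 FPKM in the si-v and 26.6 FPKM in the si-NC library. All genes past the filter had medians of 9.29 and 9.44 FPKM. Counting scatter is wider at low levels, and the spread was not compared with genes of matched level.

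The member furthest from equal was MRPL10, which anchors the flexible L7/L12 stalk where translation factors dock. It had 3.02 FPKM in the si-v library, against 18.2 FPKM in the si-NC library, a log2 ratio of -2.26. The values rested on 61 and 342 fragments, whose ratio, with no pseudocount, had an interval of -3.02 to -2.21. MRPL10 was the lowest-ranked member in the si-v library and stood at rank 57 in the si-NC library, and 7 of the 11046 genes had a lower ratio. Its main transcript MRPL10-202 had 1.90 and 15.7 FPKM and MRPL10-203 had 1.06 and 2.54 FPKM, so both were lower in the si-v library. Only 3 of its 7 annotated transcripts were listed, it has no pseudogene of its own symbol, and no exon of another gene overlaps it in GENCODE 29.

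Second among the lower members was MRPS36, at 6.57 FPKM in the si-v and 13.5 FPKM in the si-NC library, a log2 ratio of -0.94 with 100 and 190 fragments and an interval of -1.41 to -0.68. Despite its symbol, MRPS36 is known as a subunit that ties together the oxoglutarate dehydrogenase complex of the citric acid cycle, not as a protein of the ribosome. It has 5 pseudogenes of its own symbol, to which reads could have been split. With it left out, MRPL10 was the lone ribosome protein at least 1.5-fold lower.

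The 4 members at least 1.5-fold higher in the si-v library were MRPS34, MRPL12, MRPL24 and MRPS18B. MRPS34 had 165 FPKM in the si-v library and 82.1 FPKM in the si-NC library, on 2006 and 925 fragments, a log2 ratio of 0.99, just short of 2-fold with the pseudocount, with an interval of 0.89 to 1.11. MRPL12, the multi-copy protein of the stalk that MRPL10 anchors and a reported partner of the mitochondrial RNA polymerase, had 81.5 and 47.1 FPKM, a ratio of 0.78 with an interval of 0.64 to 0.95. The anchor of the stalk and the protein it carries thus lay on opposite sides, MRPL10 at -2.26 and MRPL12 at 0.78. MRPL24 had a ratio of 0.67 with an interval of 0.54 to 0.79, and MRPS18B, at 52.2 and 34.3 FPKM, one of 0.59 with an interval of 0.46 to 0.76. MRPL12 and MRPS18B had 1 listed transcript each. Both larger transcripts of MRPL24 were higher in the si-v library, MRPL24-202 at 81.8 and 50.3 FPKM and MRPL24-201 at 51.0 and 33.8 FPKM. Just inside the 1.5-fold limit were MRPS23 at 0.54 and, on the lower side, MRPS27 and MRPL13 at -0.54 each.

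**Figure D2:**
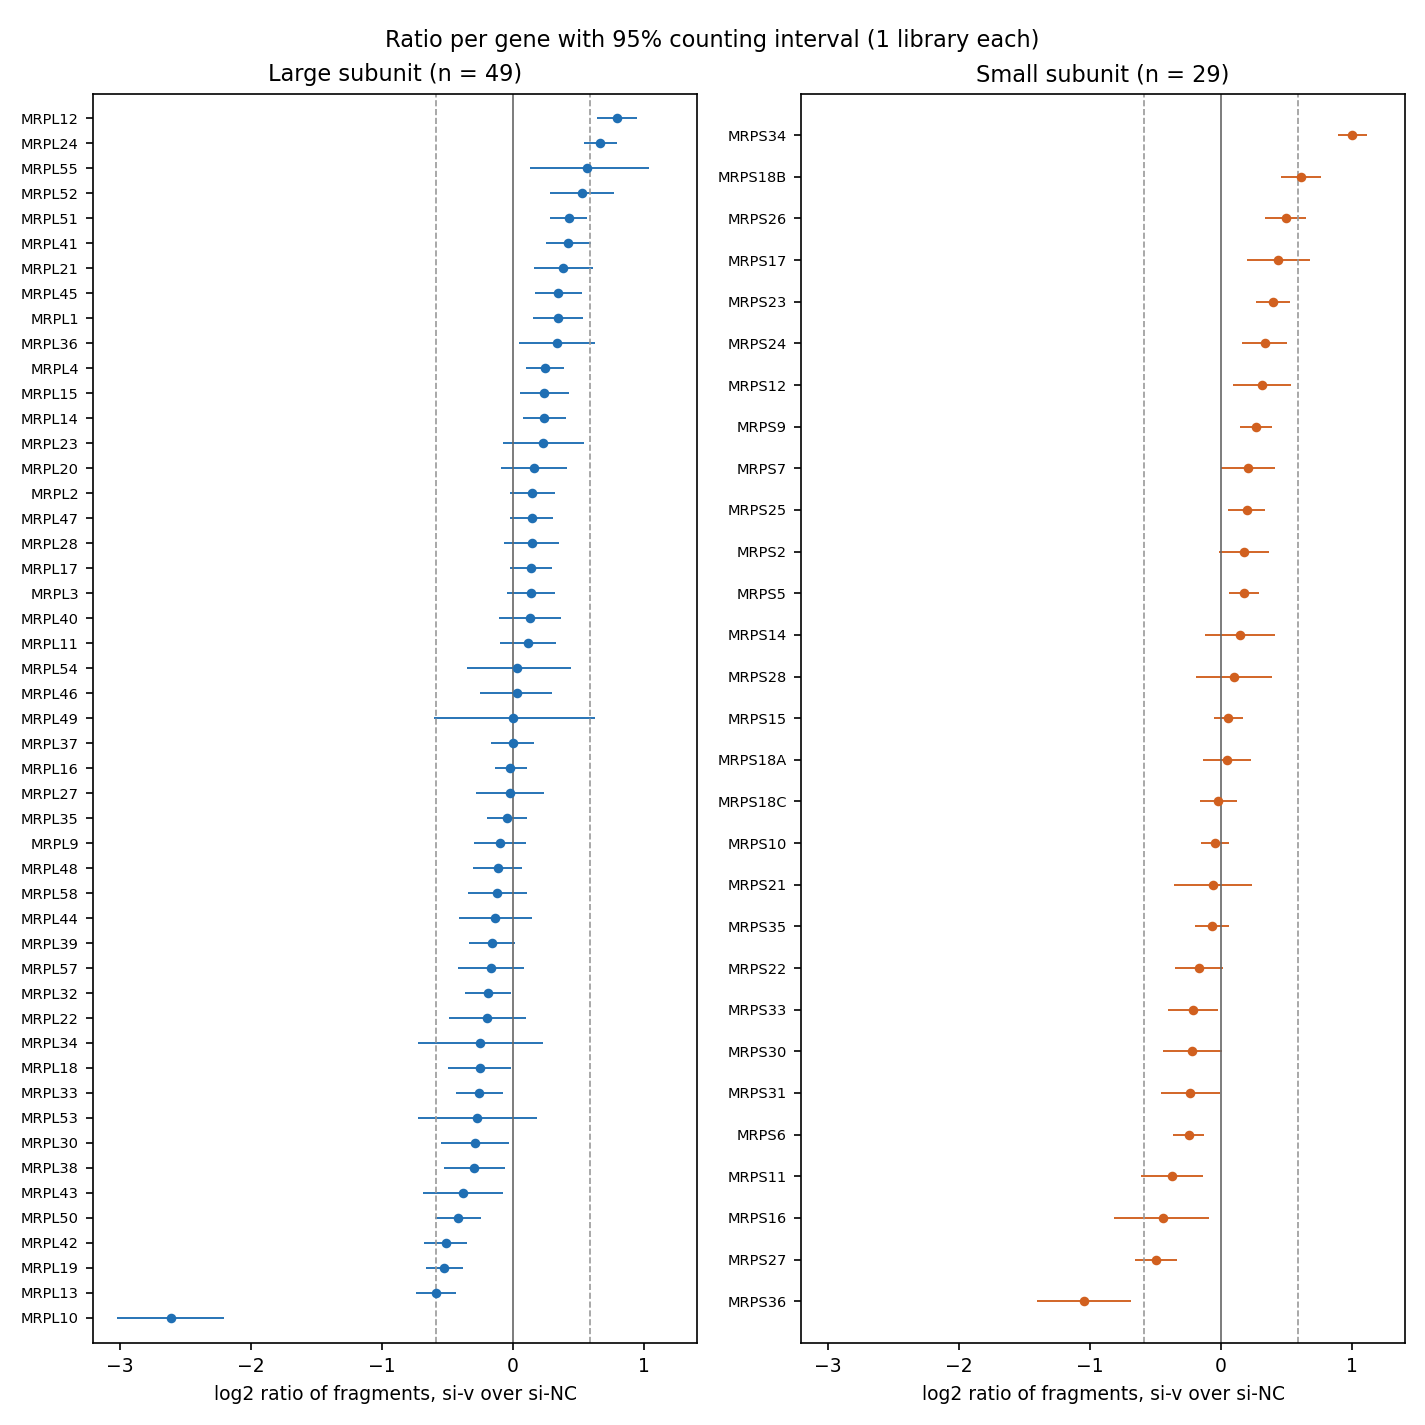
Log2 ratio of fragments, si-v over si-NC, scaled to depth and with no pseudocount (horizontal), for each member by subunit; points are ratios, horizontal bars 95% counting intervals, and dashed lines 1.5-fold. Most intervals lie between the dashed lines, with MRPL10 at -2.61, the lowest, and MRPS34, with an interval of 0.89 to 1.11, the highest.

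Promoter windows were read for the members to show what these genes share upstream. RefSeq windows of 300 bases on GRCh38.p14, 250 before to 50 after the annotated start, were matched for 69 of 78 members, and MRPL10 and MRPS36 were not among them. Windows are printed for 3 of the 4 members that were at least 1.5-fold higher, to set the most GC-rich beside the others, and for MRPL17, which lay near equal at 30.8 FPKM in the si-v and 27.9 FPKM in the si-NC library and holds the site of NRF1, a regulator of nuclear genes for mitochondria. Each is given 5′ to 3′ on the strand of its gene, and capitals mark motif matches. MRPS34 is at chr16:1773085-1773384 on the minus strand and its capitals are matches to the ETS family motif bound by GABPA, read on the other strand. MRPL12 is at chr17:81703117-81703416 on the plus strand and holds none of the 3 motifs. MRPS18B is at chr6:30617590-30617889 on the plus strand with a match for YY1, and MRPL17 is at chr11:6683291-6683590 on the minus strand with a match for NRF1.
MRPS34: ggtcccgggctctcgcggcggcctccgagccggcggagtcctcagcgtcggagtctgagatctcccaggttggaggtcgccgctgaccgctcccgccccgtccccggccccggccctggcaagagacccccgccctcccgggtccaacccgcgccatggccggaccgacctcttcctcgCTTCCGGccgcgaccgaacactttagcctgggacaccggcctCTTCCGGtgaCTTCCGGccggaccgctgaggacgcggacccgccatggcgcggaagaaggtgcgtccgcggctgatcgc
MRPL12: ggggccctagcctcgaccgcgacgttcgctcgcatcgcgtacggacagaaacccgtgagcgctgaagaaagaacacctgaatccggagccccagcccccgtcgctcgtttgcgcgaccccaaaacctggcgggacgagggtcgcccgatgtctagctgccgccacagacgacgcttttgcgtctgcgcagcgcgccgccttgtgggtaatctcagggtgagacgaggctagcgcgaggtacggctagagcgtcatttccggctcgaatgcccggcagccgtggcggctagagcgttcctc
MRPS18B: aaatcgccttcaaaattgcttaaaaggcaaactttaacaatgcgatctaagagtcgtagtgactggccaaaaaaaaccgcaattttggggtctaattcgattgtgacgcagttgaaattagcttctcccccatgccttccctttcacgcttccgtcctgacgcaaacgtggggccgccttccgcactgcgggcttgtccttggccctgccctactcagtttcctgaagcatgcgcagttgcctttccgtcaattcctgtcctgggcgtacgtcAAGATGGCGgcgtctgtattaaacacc
MRPL17: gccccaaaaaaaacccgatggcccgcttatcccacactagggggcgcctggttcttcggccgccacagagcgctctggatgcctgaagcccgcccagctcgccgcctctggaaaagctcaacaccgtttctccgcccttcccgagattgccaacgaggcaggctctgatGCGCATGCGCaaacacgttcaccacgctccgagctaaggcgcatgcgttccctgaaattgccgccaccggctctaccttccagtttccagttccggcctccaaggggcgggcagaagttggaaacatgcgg

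The 3 matches in the MRPS34 window lay 71, 29 and 19 bases before the start, the YY1 match of MRPS18B 24 bases after it, and the NRF1 match of MRPL17 81 bases before it. Over both strands, the YY1 motif AAGATGGCG was found in 13 of 69 member windows (18.8%), against 4.24% of the 8806 other genes past the filter and 1.85% of all 27305 promoters. The ETS motif CCGGAAG was in 29 (42.0%), against 20.9% of other genes past the filter and 10.7% of all promoters. The NRF1 motif, GCGC, any base and TGCGC in a run, was in 8 (11.6%), against 12.6% and 6.28%. The CCAAT box was in 20 of 69, against 37.3% and 35.7%, and the E-box CACGTG in 8.70%, against 10.5% and 7.43%. At least 1 of the YY1, ETS and NRF1 motifs stood in 43 windows (62.3%), against 33.4% of other genes past the filter. By subunit, the ETS motif was in 17 of 42 large subunit windows (40.5%) and 12 of 27 small subunit windows (44.4%), and the YY1 motif in 8 (19.0%) and 5 (18.5%). The NRF1 motif was in 6 large (14.3%) and 2 small subunit windows (7.41%), the E-box in 5 (11.9%) and 1 (3.70%), and the CCAAT box in 11 (26.2%) and 9 (33.3%), with no test of these differences.

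The median log2 ratio of si-v over si-NC was 0.00 for the 29 members with the ETS motif and 0.13 for those without, and 0.02 with and 0.10 without the YY1 motif. For NRF1 it was 0.19 with the motif, over 8 members, and 0.09 without, and for the E-box 0.16 with, over 6 members, and 0.09 without. For the CCAAT box it was -0.00 with and 0.13 without. In the other genes past the filter, the medians with and without the motif were 0.06 and -0.01 for ETS and -0.02 and 0.00 for YY1. They were -0.01 and 0.00 for NRF1, 0.05 and -0.01 for the E-box, and 0.01 and 0.00 for the CCAAT box. Motif matches are a description of letters, and binding was not measured.

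Within the large subunit the roles were mixed, and counts above 0 stand beside a share of 50.4% over all genes. In the stalk, MRPL10 at -2.26 and MRPL12 at 0.78 lay at the ends, with MRPL11, the protein of the stalk base, at 0.17 (23.2 and 20.5 FPKM), MRPL54 at 0.03 (15.2 and 14.9 FPKM) and MRPL53 at -0.32 with an interval of -0.72 to 0.18, so 3 of 5 were above 0 and the median was 0.03. Of the 6 proteins of the central protuberance, the crest that faces the small subunit, 2 were above 0 and 4 below, with a median of -0.12. MRPL38 had 13.01 FPKM in the si-v and 16.0 FPKM in the si-NC library, a ratio of -0.28 with an interval of -0.53 to -0.07, and MRPL18 had 24.4 and 29.2 FPKM, a ratio of -0.25. Of 6 proteins around the exit tunnel 3 were above 0, with a median of -0.01. With MRPL4, which lines the tunnel, and GADD45GIP1 added after seeing the data, 5 of 8 were above 0 and the median was 0.08. Among the 6, MRPL24 at 0.67 and MRPL45, which faces the inner membrane and its insertase, at 0.34 (30.8 and 24.1 FPKM) were the highest, and MRPL39 was the lowest at -0.14 (43.3 and 47.7 FPKM).

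Among the other large subunit proteins, 3 were next on the higher side. MRPL52 had 32.1 FPKM in the si-v library and 23.0 FPKM in the si-NC library, a ratio of 0.47 with an interval of 0.28 to 0.77. MRPL41, a mitochondria-only protein, had 47.4 and 35.4 FPKM, a ratio of 0.41 with an interval of 0.25 to 0.59. MRPL21, which has a bacterial counterpart, had 48.4 and 36.9 FPKM, a ratio of 0.38 with an interval of 0.16 to 0.61. MRPL51 was at 0.38 as well, with an interval of 0.28 to 0.56. On the lower side MRPL13 had 48.8 and 71.2 FPKM, a ratio of -0.54 with an interval of -0.74 to -0.43. MRPL43 followed at 14.4 and 20.3 FPKM, a ratio of -0.46 with an interval of -0.69 to -0.07, and MRPL50 at 12.5 and 16.8 FPKM, a ratio of -0.39 with an interval of -0.59 to -0.25. MRPL16, near the catalytic centre, was almost level at 81.4 and 81.9 FPKM, a ratio of -0.01, as was MRPL58, a peptidyl-tRNA hydrolase built into the subunit, at 33.4 and 34.8 FPKM.

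In the small subunit, the head and mRNA channel were counted together with DAP3 and PTCD3, which belong there under other symbols. Of these 10 proteins, 7 were above 0, beside 50.4% of all genes, and the median of the 10 was 0.15. MRPS24 had 76.5 FPKM in the si-v and 60.8 FPKM in the si-NC library, a ratio of 0.33, and MRPS9 had 75.3 and 62.6 FPKM, a ratio of 0.26. MRPS5, which lines the mRNA entrance, had 69.3 and 61.5 FPKM, a ratio of 0.17. MRPS31, a mitochondria-only protein of the head, was on the other side at 17.9 and 21.1 FPKM, a ratio of -0.22 with an interval of -0.46 to -0.00. MRPS12, the protein of the decoding centre, had 30.8 and 24.0 FPKM, a ratio of 0.35 with an interval of 0.09 to 0.53.

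Further small subunit proteins at the ends of the range were MRPS23, at 25.1 FPKM in the si-v and 17.0 FPKM in the si-NC library, MRPS26 at 62.3 and 44.3 FPKM, and MRPS17 at 18.1 and 13.3 FPKM. Their ratios were 0.54 with an interval of 0.26 to 0.53, 0.48 with 0.33 to 0.65, and 0.41 with 0.20 to 0.68. The ratio of MRPS23 lies past its own interval because FPKM and fragments weigh its transcripts by different lengths. MRPS27, a protein of the pentatricopeptide repeat family that binds RNA, had 17.1 and 25.3 FPKM, a ratio of -0.54 with an interval of -0.66 to -0.34. MRPS11 had 6.48 and 8.42 FPKM, a ratio of -0.33 with an interval of -0.61 to -0.14. MRPS6 was at -0.25 with an interval of -0.37 to -0.13. MRPS30, which structures place in the large subunit despite its symbol, was at -0.21 with 15.7 and 18.3 FPKM and an interval of -0.44 to 0.01.

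The large subunit had a median ratio of 0.06, with quartiles of -0.14 and 0.20, and 29 of its 49 members were above 0. The small subunit had a median of 0.09, with quartiles of -0.08 and 0.32, and 18 of 29 were above 0. The share of all genes above 0 was 50.4%. With fragments per gene the medians were 0.01 for the large and 0.07 for the small subunit. By summed FPKM the large minus small difference of the medians was -0.03. Each subunit had 2 members at least 1.5-fold higher and 1 at least 1.5-fold lower. With the subunits drawn by structure, MRPS18A and MRPS30 counted with the large one and MRPS36 left out, the medians were 0.06 over 51 and 0.10 over 26 members. Without MRPL10 the large subunit median was 0.08. The spread was similar, with standard deviations of 0.43 and 0.37.

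By sums the small subunit stood further up than the large one. Large subunit messages summed to 1681 FPKM in the si-v library and 1564 FPKM in the si-NC library, 0.565% and 0.520% of the total. Small subunit messages summed to 1246 and 1102 FPKM, 0.418% and 0.366% of the total. The log2 ratio of summed fragments was 0.04 for the large subunit, with an interval of 0.01 to 0.07, and 0.14 for the small subunit, with an interval of 0.11 to 0.16. The intervals of the sums did not overlap. MRPS34 alone contributed 2006 of the small subunit's fragments in the si-v library and 925 in the si-NC library, and without it the small subunit's ratio was 0.07, with an interval of 0.04 to 0.10 that overlapped the large subunit's. Sums follow the abundant members, and genes are not replicates, so no test of the difference was made.

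Proteins with and without a bacterial counterpart were set apart by symbol. MRPL1 to MRPL36, MRPL47, MRPL55, MRPS2 to MRPS21 and MRPS24 were counted as having one. The placing of single proteins, such as MRPS28 (ratio 0.12) among those without, was not checked further. In the large subunit the 30 with one had a median ratio of 0.13 and the 19 without had 0.02. In the small subunit the 17 with one had a median of 0.10, and the 12 without had -0.05. Above 0 were 13 of the 17 and 5 of the 12, beside 50.4% of all genes. The 13 include MRPS16 and MRPS18C, whose fragments gave -0.45 and -0.02, and MRPS18A, which counts with the large subunit by structure. MRPS34, at 0.99, and MRPS36, at -0.94, were both among those 12. By symbol the 12 thus hold MRPS36, not known as a ribosome protein, and MRPS30, at -0.21, which structures place in the large subunit. With the trend over all genes in GC and length removed, the medians with and without a counterpart were 0.03 and -0.09 in the large subunit. In the small subunit they were 0.07 and 0.02.

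Beneath the summed values, single transcripts lay further apart than genes did. The table listed 240 of the 499 annotated transcripts of the members, and 189 reached 1 FPKM in at least 1 library. At 2-fold, 23 of these (12.2%) were higher in the si-v library, against 11.7% of all transcripts tested, and 12 (6.35%) were lower, against 10.4%. The most abundant transcript differed between the libraries in 10 of the 56 members with several listed transcripts (17.9%, against 26.4% of all such genes). In 7 of the 10 both transcripts reached 5 FPKM in the library where they led (12.5%, against 9.43%). StringTie apportions reads among overlapping transcripts, so part of each such split is an estimate rather than a count, and how much was not tested.

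MRPS2, a protein of the small subunit head, showed such a split. MRPS2-202 had 19.3 FPKM in the si-v and 0.566 FPKM in the si-NC library, whereas MRPS2-201 had 6.80 and 24.1 FPKM, and the gene's sum was 27.0 and 25.2 FPKM. Both carry the same coding sequence of 296 codons and MRPS2-202 has 130 bases more outside it. In MRPL23 likewise, MRPL23-205 had 20.0 and 0.684 FPKM and MRPL23-202 had 3.50 and 21.8 FPKM, with the same 153 codons, against a gene sum of 23.5 and 22.5 FPKM. For MRPS27 the transcripts differ in the protein, since MRPS27-201 codes for 414 and MRPS27-202 for 358 codons. MRPS27-201 had 15.0 and 1.42 FPKM and MRPS27-202 had 2.13 and 23.9 FPKM.

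MRPL4, a protein whose bacterial counterpart lines the exit tunnel, was split over more transcripts. MRPL4-202 was listed at 0 in the si-v library and at 21.2 FPKM in the si-NC library, while MRPL4-203 had 18.9 and 8.78 FPKM and MRPL4-201 had 18.8 and 4.61 FPKM, and the gene's sum was 49.3 and 46.0 FPKM. MRPL37-202, of 423 codons, had 18.9 and 9.23 FPKM and MRPL37-206, of 483 codons, had 11.6 and 22.7 FPKM. In MRPL19 the short MRPL19-203 of 1076 bases had 20.4 and 2.88 FPKM, and the long MRPL19-202 of 3479 bases, with the same 292 codons, had 11.2 and 24.0 FPKM. For MRPL42 the pair was MRPL42-204, at 13.01 and 6.27 FPKM, and MRPL42-208, at 1.85 and 6.43 FPKM.

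Because FPKM divides by length, such splits turned the direction of 3 genes by more than counting error. Summed FPKM gave MRPL19, MRPL42 and MRPS16 log2 ratios of 0.16, 0.14 and 0.09, while their fragments gave -0.52, -0.51 and -0.45 with counting intervals that did not reach 0. Most fragments of MRPL42 fell outside the pair above, on MRPL42-206 of 15582 bases. This transcript held 411 of 546 fragments in the si-v library and 606 of 719 in the si-NC library, at only 2.22 and 3.54 FPKM. For these 3 no direction at the level of the gene can be given. MRPS34 and MRPL10 did not depend on a split, as MRPS34-202 had 153 and 73.4 FPKM and MRPS34-201 had 11.8 and 8.73 FPKM.

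**Figure D3:**
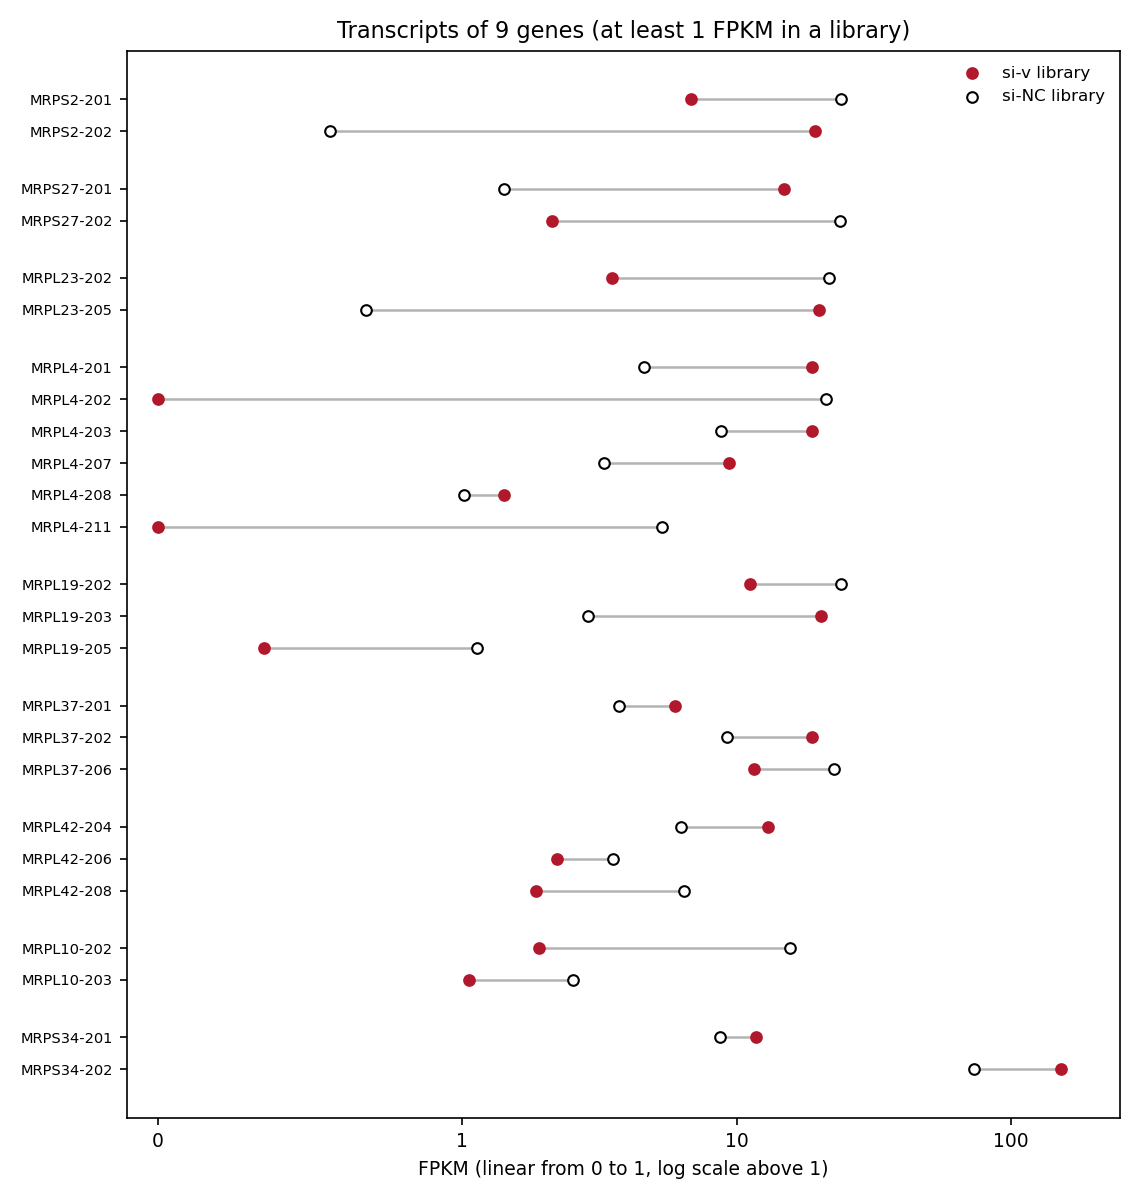
FPKM (horizontal, linear up to 1 and log above) of each transcript that reached 1 FPKM for 9 members, in the si-v library (filled red) and the si-NC library (open black), joined by a line. In MRPS2, MRPS27 and MRPL23 the leading transcript differs between the libraries, while the transcripts of MRPS34 and of MRPL10 lie on the same side.

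The ratio tended to be higher at higher GC content, in the members as in all genes. Across the 78 members the log2 ratio and the GC content of the listed transcripts had Pearson's r of 0.29 and Spearman's rho of 0.34, and over all 11046 genes the values were 0.29 and 0.34. In the large subunit r was 0.15 and rho 0.23, and in the small subunit 0.62 and 0.53, over 49 and 29 genes of the same 2 libraries. When members were ranked by GC into 3 groups of 26, the median ratio was -0.08, 0.15 and 0.13 with rising GC, and 10, 17 and 20 of each group were above 0. All genes in the same GC ranges had medians of -0.14, 0.02 and 0.18. MRPS34 and MRPL12 had GC contents of 64.8% and 64.6%, and MRPS36 had 35.2%.

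With the trend over all genes in GC and length removed, the member median was 0.01, with -0.07 for the large and 0.05 for the small subunit. MRPS34 then had a ratio of 0.71 and was the one member at least 1.5-fold higher. MRPL24 had 0.52 and MRPL12 0.50, while MRPL41, the most GC-rich member at 71.9%, had 0.01. On the lower side 3 members were at least 1.5-fold lower, MRPL10 at -2.37, MRPS36 at -0.71 and MRPL43 at -0.64. The shares of all genes on this scale were 7.39% higher and 8.22% lower. How far GC plays a part in the difference between the libraries beyond this was not tested.

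**Figure D4:**
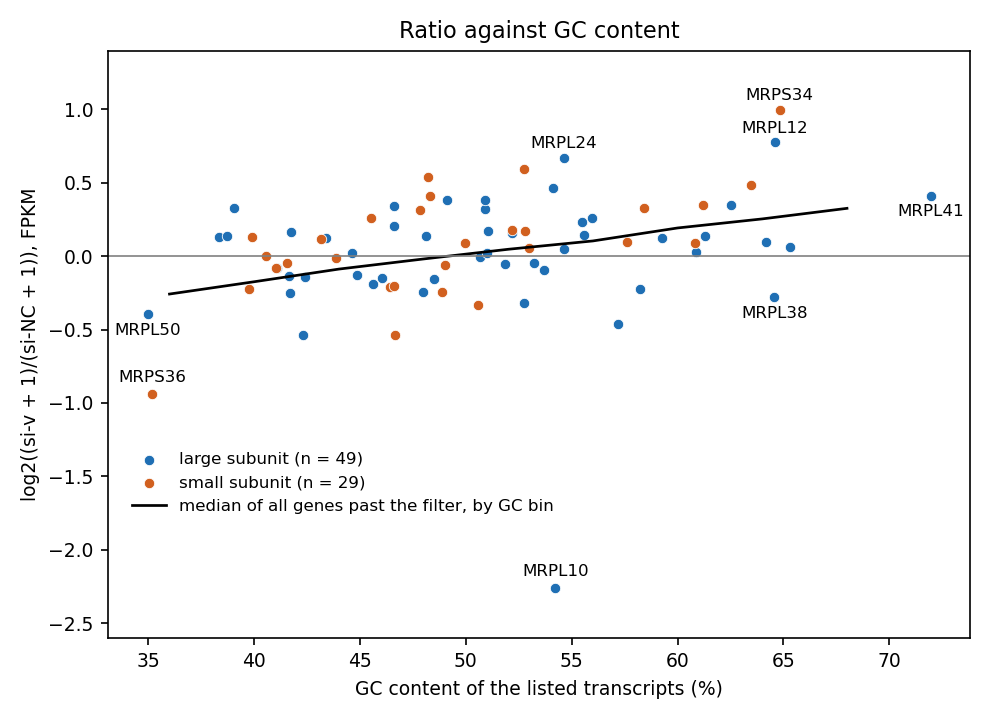
Log2 ratio of si-v over si-NC against the GC content (%) of the listed transcripts, large subunit in blue and small subunit in orange, with the median of all genes past the filter by GC bin as a black line. Ratio and GC content had r of 0.29 across the members and across all genes, with wide scatter of the members around the line. MRPL10 lies far below it.

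Of 5 ribosome proteins known by other symbols, 4 had ratios above 0, beside 50.4% of all genes. GADD45GIP1, a large subunit protein at the tunnel exit, had 186 FPKM in the si-v library and 114 FPKM in the si-NC library, a ratio of 0.70 with an interval of 0.63 to 0.78. DAP3, a GTP-binding protein of the small subunit, had 56.5 and 46.6 FPKM, a ratio of 0.27. CHCHD1 was at 0.22 and AURKAIP1 at 0.18, and PTCD3, which meets the mRNA, was at -0.22 with 17.7 and 20.7 FPKM. The median of these 5 was 0.22, and 1 of 5 was at least 1.5-fold higher, beside 9.82% of all genes.

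Of 28 genes for assembly of the mitochondrial ribosome, 20 were above 0, where the share of all genes was 50.4%, with a median of 0.12. At 1.5-fold, 4 were higher and 0 lower, where the shares of all genes were 9.82% and 8.91%. RCC1L, a factor in the assembly of the ribosome and the modification of its RNA, had 20.5 FPKM in the si-v and 8.02 FPKM in the si-NC library, a ratio of 1.25, and RPUSD4, a pseudouridine synthase, had 16.5 and 9.33 FPKM, a ratio of 0.76. NSUN4, an RNA methyltransferase, had 1.67 and 0.738 FPKM on 43 and 17 fragments, and the GTPase MTG2 had 6.75 and 4.08 FPKM. MALSU1, which binds the large subunit before the subunits join, had 3.42 and 5.62 FPKM, a ratio of -0.58. Among 16 listed translation factors and mRNA-binding proteins of mitochondria, 7 were above 0, beside 50.4% of all genes, and the median was -0.09. With the GC and length trend removed, the medians were 0.06 for the assembly genes and 0.07 for these 16, beside 0.01 for all genes. SLIRP, which stabilises mitochondrial messages, had 214 and 107 FPKM, a ratio of 0.99, while its 1037 and 625 fragments gave a lower interval of 0.47 to 0.76. The elongation factor TUFM had 131 and 104 FPKM, a ratio of 0.33. The initiation factor MTIF3 had 5.36 and 10.2 FPKM, a ratio of -0.82, and the recycling factor GFM2 had 14.5 and 22.9 FPKM, a ratio of -0.63.

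The messages this ribosome translates were lower in the si-v library. All 13 protein genes of mitochondrial DNA had ratios below 0, -1.24 to -0.40 with a median of -0.78, and 11 were at least 1.5-fold lower. Nuclear subunits of the respiratory chain, 80 of 81 past the filter, had a median of 0.07, with 3 at least 1.5-fold higher and 8 lower. Cytosolic ribosomal proteins, 83 of 84 past the filter, had a median of 0.25, with 68 of 83 above 0 and 7 at least 1.5-fold higher and 2 lower. Of all genes past the filter, 50.4% were above 0 and 49.6% below, 9.82% were at least 1.5-fold higher and 8.91% lower. The counts past 1.5-fold in the respiratory chain and the cytosolic ribosome were near or under these shares. The mitochondrial ribosome's median of 0.09 thus lay between that of the mitochondrial messages and that of the cytosolic ribosome, and near that of the nuclear respiratory chain. The values were set side by side without a test.

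**Figure D5:**
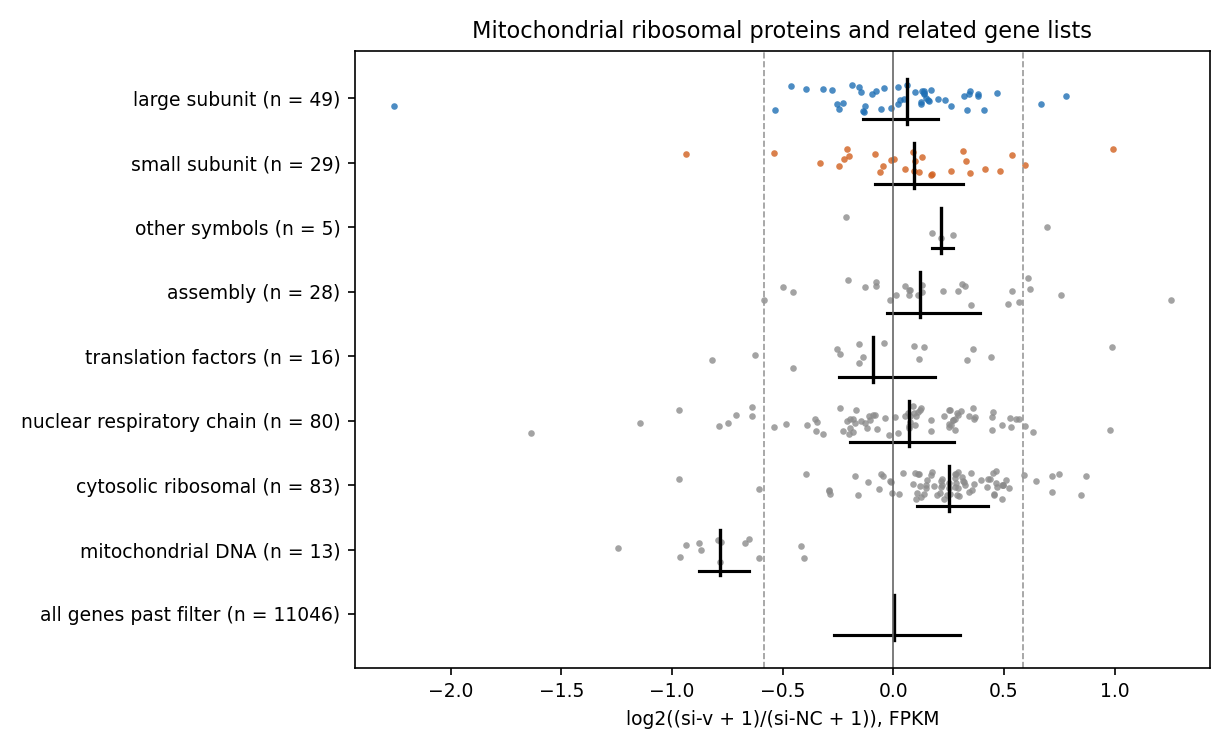
Log2 ratios of si-v over si-NC of the genes in each list (horizontal; 1 point per gene past the filter); vertical bars are medians, horizontal bars quartiles and dashed lines 1.5-fold, and all genes past the filter are shown by their bars alone. The mitochondrial ribosome lists centre on 0.06 and 0.09, the cytosolic ribosomal proteins on 0.25 and the mitochondrial DNA genes on -0.78.

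Member genes were often close to another gene. Protein-coding genes within 1000 bases that are read away from them were found for 17 members (21.8%), against 10.2% of all genes past the filter. In 12 cases the partner passed the filter, and in 7 of these both ratios had the same sign. The share of such pairs over all genes was not computed. MRPL36 and its partner NDUFS6, a subunit of respiratory complex I, were at 0.32 and 0.29, and MRPL21 and IGHMBP2 at 0.38 and 0.29. MRPL18 and TCP1, a chaperonin subunit, were on opposite sides at -0.25 and 0.29. MRPL46 and MRPS11 are partners of each other, at 0.02 and -0.33, and count as 2 of the 12. EME2, the partner of MRPS34, was at 0 and 0.0245 FPKM.

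Some member values could include reads of other genes. Exons of 41 members overlap those of another annotated gene, 29 of them on the opposite strand, and the strand setting is unknown. MRPL49 overlaps FAU, at 299 FPKM in the si-v and 158 FPKM in the si-NC library, and its own 4.98 and 3.99 FPKM are uncertain for that reason. For 34 members pseudogenes of the same symbol are annotated, and 64 members had fewer transcripts listed than annotated.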

How the data were processed

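Total RNA of 2 libraries, 1 per group, was prepared with the standard Illumina protocol, per the labels' protocols. The submitters' processing notes name cutadapt, HISAT2 2.0.5, StringTie and the hg19 build, with no role or order. The deposited table gives 1 value per transcript and library, taken as FPKM from its values because its header names no unit. Strand, filters and annotation release are not stated there. The si-NC column was assigned by name and the si-v column by elimination.

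Transcripts without version (39426 of 39605, 99.5%) were matched to GENCODE 29, used for symbols, lengths, GC content and gene neighbours only, and FPKM was summed per gene. Fragments were recovered from the step between low values, 84.1 (si-v) and 91.1 (si-NC) FPKM times bases per fragment, and are approximate. Ratios were log2((si-v + 1)/(si-NC + 1)), and adding 1 makes differences of low genes look smaller. Genes of at least 1 FPKM in a library were kept. With 1 library per group no p-value was computed, and exact 95% Clopper-Pearson intervals cover counting error only. Fragments per member ranged over 49 to 2006 in the si-v and 45 to 1486 in the si-NC library. Any member could be named, and full values were given to members at 2-fold or more, the 6 highest and 6 lowest ratios and the 3 highest levels of each subunit. Examples from other gene lists, the 4 printed promoters among them, were picked with their values in view. The members and lists were chosen with earlier results of these data known. Pseudocounts, filters, scalings, values per gene and a GC and length trend were varied. The computation was tested on simulated data. Python 3.11.15, numpy 2.4.6, pandas 2.3.3, scipy 1.17.1 and matplotlib 3.10.9 were used.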

Additional observations from a re-analysis of the deposited data

How the results depend on the processing

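No paired analysis was possible because each group had 1 library, and no replicate could be left out. The member median ranged over -0.04 to 0.13 and was below 0 in 1 of 12 settings, with the most abundant transcript in place of the sum. The large subunit median ranged over -0.13 to 0.12 and was below 0 in 4 of 13, the small subunit median ranged over -0.03 to 0.22 and was below 0 in 2 of 13. The large minus small difference ranged over -0.14 to 0.15 and was above 0 in 1 of 13. With a pseudocount of 0.1, 1 member was 2-fold higher and 2 were 2-fold lower, beside 4.40% and 4.28% of all genes. Scaled without the mitochondrial DNA genes, which lowered the median of all genes by 0.06, 4 members were 1.5-fold lower, beside 10.8%. The member median was then 0.03. With the most abundant transcript, the large subunit median was -0.13, 7 members were 1.5-fold higher, beside 14.2%, and 10 lower, beside 14.4%, while 2 were 2-fold higher, beside 6.33%, and 7 lower, beside 6.55%. With the GC and length trend removed, 1 member was 1.5-fold higher, beside 7.39%. Some settings were added after seeing the data. Among 22 members with a single listed transcript, 2 were 1.5-fold higher, 0 were 1.5-fold lower and 0 were 2-fold lower. This set leaves out MRPL10 and MRPS36, which had 3 and 2 listed transcripts. Among 44 without a pseudogene, a set that leaves out MRPS36, 1 was 1.5-fold lower. Of all genes, not narrowed in these ways, 9.82% were 1.5-fold higher, 8.91% 1.5-fold lower and 2.49% 2-fold lower. Why values moved in the other settings was not tested. Of 243 values of 27 named members, 228 moved by less than the counting half-width of that member. That total includes settings that could not move a ratio so far. Changing the filter left each ratio as it was, and setting the median of all genes to 0 shifted each by 0.004, where the smallest half-width was 0.10. With the GC and length trend removed 9 of the 27 moved further, and with the most abundant transcript 4 did. MRPS15, near level at 0.05, turned its sign in 2 settings, to -0.01 when scaled without the mitochondrial DNA genes and to -0.07 with the trend removed. Among the values that moved further were MRPL10 at -1.53 with a pseudocount of 5 and MRPS27 at -2.99 by its most abundant transcript. Depth limited single genes most at the low end, where 49 and 45 fragments of MRPL49 gave an interval of -0.61 to 0.62.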
